A study of Mus musculus with 24 samples.

Results

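STAT factors are the transcription factors at the end of cytokine receptor signalling, and the SOCS proteins and CIS are the inhibitors that those factors induce. The messenger RNAs of Stat3, Stat4, Stat5a, Stat5b, Stat6, Socs1, Socs2, Socs3 and Cish, the gene of CIS, were followed in dorsal root ganglia (DRGs), the clusters of sensory neuron cell bodies beside the spinal cord, after lesion of the sciatic nerve. These 9 genes were taken by name, and all their probes were used, which gave 15 probes of the 41174 on the array and 9 of its 27398 gene names. The STAT genes had 10 of the probes and the inhibitors had 5.

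When an interleukin-6 type cytokine, growth hormone or an interferon binds its receptor, Janus kinases phosphorylate the receptor tails and the STAT proteins that dock there, and paired STAT proteins enter the nucleus and bind DNA. SOCS proteins and CIS bind the activated receptors or kinases and shorten the signal, so they close a negative feedback loop. In sensory neurons STAT3 is known for its activation in the axon and cell body after peripheral nerve injury. A microarray measures the RNA of these genes, not the phosphorylation that activates a STAT protein.

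Adult male mice of the C57BL/6J background were either Nfil3 KO, with a germline deletion made by crossing a lox allele to CMV-Cre mice, or wildtype (WT) littermates. NFIL3 is a transcriptional repressor, and the study asked what its absence changes in injured DRGs. The left sciatic nerve was cut and the ends were sutured together, L4 and L5 DRGs were taken at day 2 and day 5, and control DRGs came from the non-injured side. The 6 groups of 4 samples were thus WT control, WT day 2, WT day 5, KO control, KO day 2 and KO day 5, each with 2 samples labelled with Cy3 and 2 with Cy5, on 12 arrays. The samples are labelled as DRG neurons, but whole ganglia were extracted, so the RNA of glia, vessels and immune cells was measured too. In such tissue fewer cells of a type and less RNA per cell cannot be told apart.

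The share of probes well above background was 54.5% to 72.3% per sample, and saturation was not seen on any spot. The lowest share was that of WT control replicate 4. Its spots marked as outliers were 0.52%, and those of WT day 5 replicate 2 on the same array 0.83%, against 0.11% to 0.17% in the other samples. Nfil3 itself was measured in all WT samples, between 8.44 and 11.1 on the log2 scale for its brighter probe. The library labelled KO control replicate 4 went against its label, at 7.59 where the other 3 KO controls lay between 2.94 and 4.37. Its title reads Day0, as do the titles of all controls, and 1 of its label fields gives day 5. Leaving it out gave the same 8 and 9 member probes called at day 2 and day 5 as reported below, and no call between genotypes. Both Nfil3 probes were also well above background in KO day 2 replicates 1 and 4, at 5.30 and 6.23 for the brighter probe, and in KO day 5 replicates 1 and 3, at 5.81 and 5.66. These 4 libraries, each hybridised together with a WT sample of the same time, were below the lowest WT value of 8.44 and above the KO libraries in which the probe was not well above background, which reached 4.37. KO control replicates 2 and 3 were also hybridised with a WT sample of the same time, and were not well above background, at 3.80 and 4.37. The KO libraries with Nfil3 well above background were thus 1 of 4 controls, 2 of 4 at day 2 and 2 of 4 at day 5. Leaving out these 5 gave 9 and 8 member probes called at day 2 and day 5, and none between genotypes. Between genotypes at day 2, 3 member probes had an unadjusted p below 0.05 in that fit. So few KO samples remained that the lack of calls between genotypes decides little. The neuron markers were present in every sample, and 9 of 13 were lower at each time after the lesion, with 1 higher at day 5, where 12.7% and 13% of all genes were lower at day 2 and day 5. Of 6 satellite glia markers, 4 were lower and 1 higher at day 2, and 2 were lower and 1 higher at day 5, while the summed level of 10 macrophage marker genes rose from 1862 to 3167 intensity units in controls to 2460 to 4818 at day 2 and 5820 to 9100 at day 5.

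The sequences that the values rest on are shown here because Stat5a and Stat5b are close relatives and because the probes of a gene did not always move together. No run of bases longer than 6 was shared between the Stat5a probe and a Stat5b probe, and none longer than 10 between any pair of the 15 probes. Each line gives the first 30 bases of a 60-base probe as the array files give it, in lower case throughout, since no part of them is marked. Positions are those of the array files in build mm9, and whether they fall in coding or untranslated exons was not assigned.
Stat5a A_51_P152765, chr11:100746144-100746203, plus strand: gaggaaacctggggcgaaaaacctgtagca
Stat5b A_52_P53698, chr11:100642099-100642158, minus strand: tttagtgtcgaggcagattagtatatagcc
Stat5b A_51_P281938, chr11:100648654-100649702, minus strand: tgcttggaagtttgactctcaggagagaat
Stat5b A_52_P663027, chr11:100682720-100682779, minus strand: ctgctagtaatcctgacccactacttgaaa
Socs3 A_51_P474459, chr11:117827480-117827539, minus strand: ccttcgaggctgtctgaagatgcttgaaaa
Cish A_51_P470715, chr9:107204196-107204255, plus strand: actttagaaaacaagtgttagaacacaaga

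The second Stat5b probe spans 1049 bases of the genome and the third is annotated to the cDNA AK137889 rather than to the RefSeq transcript. Stat3, Stat5a and Stat5b lie side by side on chromosome 11, and the second Stat3 probe, A_52_P569499, ends 258 bases from the Stat5a probe on the opposite strand.

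The DNA letters that paired STAT proteins bind were looked for in the RefSeq promoter windows of build GRCm38.p6, from 250 bases before to 50 bases after each start. The motifs were TTCNNNGAA and TTCNNNNGAA, which read the same on both strands and differ in the number of bases between their ends. Windows were at hand for 8 of the 9 genes, 11 in all. TTCNNNGAA was found in 2 of the 11 windows, those of Socs3 and Cish, once and at 2 places, against 8.3% of 32851 windows of all genes. TTCNNNNGAA was found in no window of the 8 genes and in 6.95% of all windows. The stretches of 30 bases around the matches are given with the matches in capitals; counted from base 1 of the transcript, the Socs3 match begins at base -154, and those of Cish at bases 1 and 12.
Socs3, GRCm38.p6, chr11:117969502-117969531, minus strand: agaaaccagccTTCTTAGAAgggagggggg
Cish, GRCm38.p6, chr9:107296654-107296683, plus strand: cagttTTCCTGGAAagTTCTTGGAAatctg

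Both genes were among those that rose after the lesion, but so were Stat5a, Stat5b and Socs1, whose windows held no match. Letters in a window are a description and show no binding.

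The lesion was compared with control DRGs over both genotypes, 8 samples against 8 at each time, with limma's adjusted p-values over all probes and a threshold of 0.05. All values are log2 intensities after quantile normalization, and each gene is described by its brightest probe unless another is named. At day 2 the test called 8 of the 15 probes, all higher, against 21.2% of all probes, 9.33% higher and 11.8% lower. At day 5 it called 9 probes, 8 higher and 1 lower, against 22.2% of all probes, 9.6% higher and 12.6% lower. By brightest probe, Stat5a, Stat5b, Socs1, Socs2, Socs3 and Cish were higher at both times, Stat3 was called higher at day 2, Stat6 was called lower at day 5, and Stat4 was called at neither. By brightest probe the median difference of the 9 genes was 0.82 at day 2 and 0.77 at day 5, beside -0.02 and -0.03 over all genes. Over all 15 member probes it was 0.32 and 0.36, beside -0.02 and -0.04 over all probes. Both comparisons use the same control samples. Controls came from the non-injured side, and the titles do not say whether control and lesioned samples share animals. The tests treat all samples as independent.

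**Figure D1:**
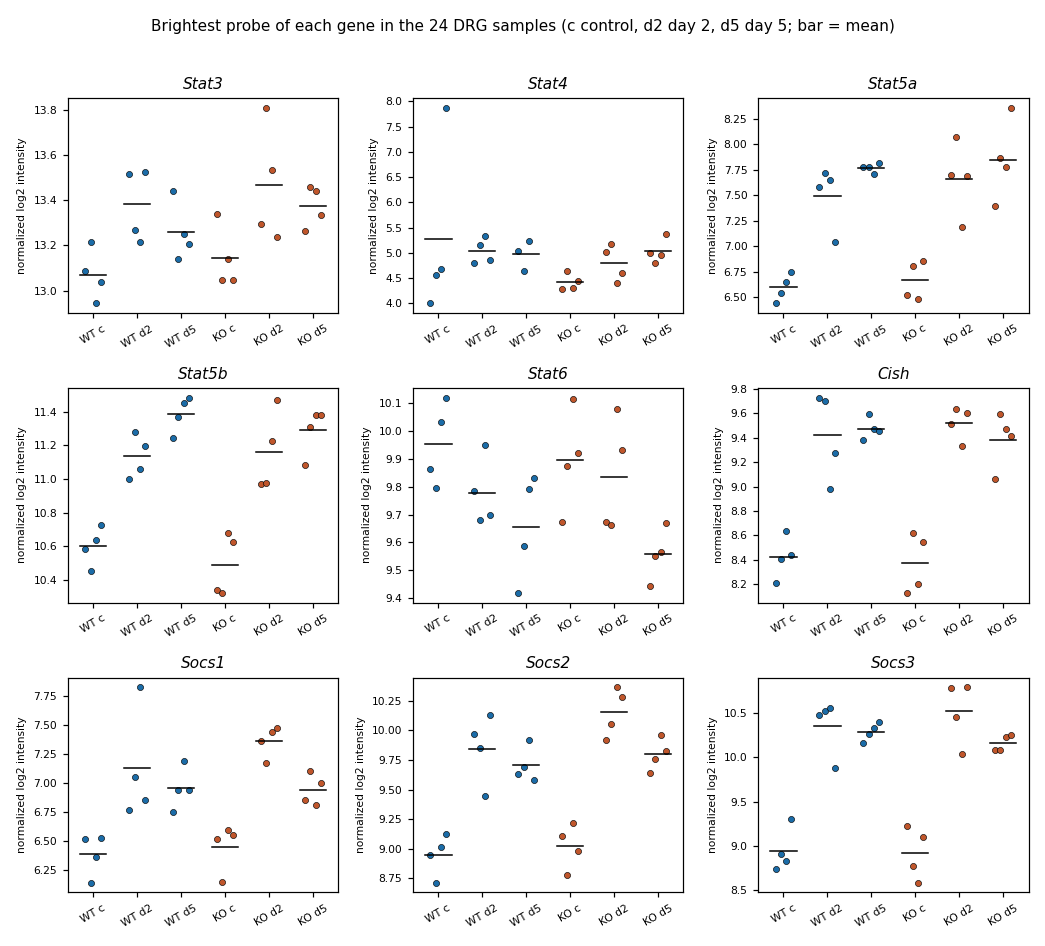
Normalized log2 intensity of each gene's brightest probe in the 24 samples; each point is 1 sample, the bar is the group mean, WT groups are blue and Nfil3 KO groups orange, with c for control, d2 for day 2 and d5 for day 5. For 6 genes all 16 lesioned samples lie above all 8 controls, and Stat4 has a single high control at 7.87.

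Stat3 is the factor of interleukin-6 type cytokines. Its values in WT controls were 13.09, 13.21, 12.95 and 13.04, and in KO controls 13.34, 13.05, 13.14 and 13.05. At day 2 they were 13.52, 13.27, 13.22 and 13.52 in WT and 13.30, 13.81, 13.53 and 13.24 in KO. At day 5 they were 13.44, 13.14, 13.25 and 13.21 in WT and 13.26, 13.46, 13.44 and 13.33 in KO. The groups overlapped at both times, with the highest control above the lowest lesioned samples. Stat3 rose by 0.32 ± 0.08 (SE, n = 8 against 8) at day 2, or 1.25-fold (95% confidence interval 1.10 to 1.41), with an adjusted p of 0.00906. At day 5 the difference was 0.21 ± 0.08 with an adjusted p of 0.0842. The dim second probe, between 4.46 and 5.64 in all samples, gave 0.13 and -0.12 with adjusted p-values of 0.562 and 0.644, and the mean of both probes lost the call at day 2 (0.23, adjusted p = 0.0999).

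Stat5a and Stat5b, the factors of growth hormone, prolactin and several interleukins, rose at both times. For Stat5a the lowest, median and highest of the 8 controls were 6.44, 6.60 and 6.86. They were 7.04, 7.67 and 8.07 at day 2 and 7.39, 7.78 and 8.36 at day 5, so neither lesion group overlapped the controls. The change was 0.95 ± 0.13 at day 2, 1.93-fold (1.59 to 2.34), and 1.18 ± 0.13 at day 5, 2.26-fold (1.86 to 2.75), with adjusted p-values of 2.97e-05 and 1.54e-06. The 2 lowest day 2 samples, WT replicate 4 at 7.04 and KO replicate 3 at 7.19, were those hybridised together with a control sample, while the other 6 lay between 7.58 and 8.07. With the lesion state of the array partner as a covariate, a setting chosen after seeing the data, the changes of Stat5a were 0.90 and 1.13.

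Stat5b controls lay between 10.32 and 10.73 with a median of 10.60, the day 2 samples between 10.97 and 11.47 with a median of 11.13, and the day 5 samples between 11.09 and 11.49 with a median of 11.37. Again no lesioned sample was as low as a control. Stat5b rose by 0.60 ± 0.08 at day 2, 1.52-fold (1.35 to 1.72), and by 0.79 ± 0.08 at day 5, 1.73-fold (1.53 to 1.96), and the adjusted p-values were 2.4e-05 and 5.76e-07. The second probe shown above rose by 0.58 and 0.59 (adjusted p = 0.000738 and 0.000513), though at a level of 4.24 to 5.00 in controls, of which 6 of 8 were well above background. The third probe, annotated to the cDNA, gave -0.20 and 0.08 (adjusted p = 0.565 and 0.853), with 14 of 24 samples well above background.

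Stat6, the factor of interleukin-4 and interleukin-13, was the member that was called lower. Its controls had a lowest value of 9.67, a median of 9.90 and a highest of 10.12, against 9.66, 9.74 and 10.08 at day 2 and 9.42, 9.58 and 9.83 at day 5. Both lesion groups overlapped the controls. The difference was -0.12 ± 0.09 at day 2 (adjusted p = 0.384), and Stat6 fell by 0.32 ± 0.09 at day 5, to 0.803-fold of control (0.710 to 0.908), with an adjusted p of 0.00925. The call was lost in the smaller fit without the 5 KO libraries in which Nfil3 was well above background, at -0.29 with an adjusted p of 0.0792. The other 2 Stat6 probes gave -0.16 and -0.20 at day 5, with adjusted p-values of 0.0544 and 0.478.

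Stat4, the factor of interleukin-12, was near the detection limit, with 20 of 24 samples and 5 of 8 controls well above background. These counts include the outlier-marked spot left out of the fit and the single high control, both described below. Its controls were 4.002, 4.56, 4.69 and 7.87 in WT and 4.28, 4.65, 4.30 and 4.44 in KO. The day 2 samples were 4.80, 5.15, 5.33 and 4.87 in WT and 5.01, 5.16, 4.40 and 4.60 in KO, and the day 5 samples were 5.04, 4.65 and 5.23 in WT and 5.00, 4.80, 4.96 and 5.36 in KO. The single high control was WT control replicate 4, and the WT day 5 sample hybridised to the same array had its Stat4 spot marked as an outlier, at 7.75, and was left out of the fit. With these values the differences were 0.06 ± 0.37 and 0.15 ± 0.39, with adjusted p-values of 0.938 and 0.857. Without WT control replicate 4, a setting in which that library decides the call, Stat4 rose by 0.50 at day 2, 1.41-fold (adjusted p = 0.0188), and by 0.58 at day 5, 1.497-fold (adjusted p = 0.0078).

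**Figure D2:**
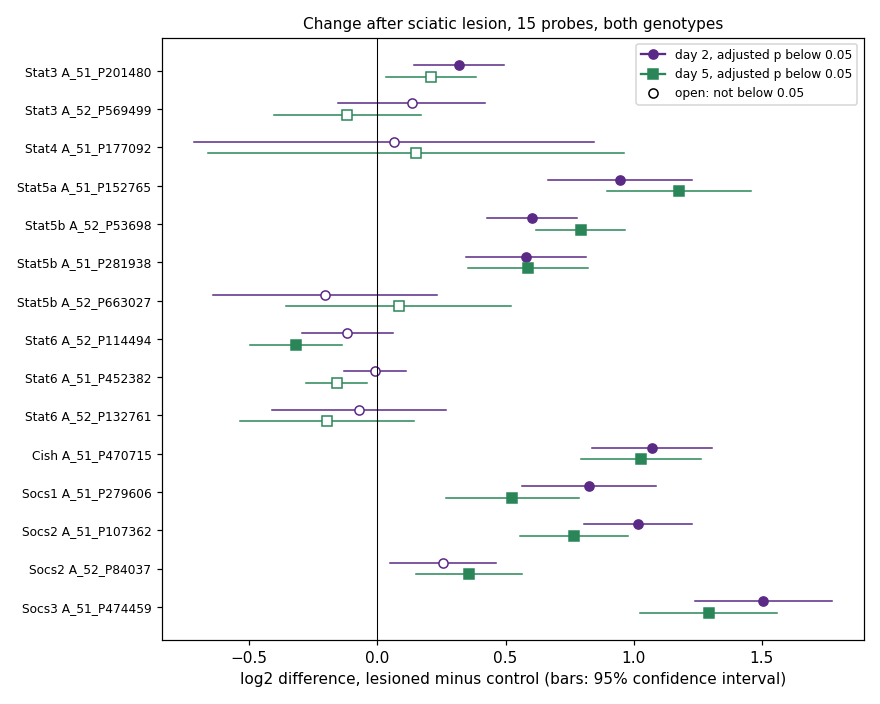
Log2 difference of lesioned minus control DRGs for the 15 probes, over both genotypes, at day 2 (circles) and day 5 (squares) with 95% confidence intervals; filled symbols have an adjusted p below 0.05. The Socs3 probe has the highest difference at both times, 1.51 and 1.29, and the intervals of the dim Stat4 probe, from -0.71 to 0.84 at day 2, are the widest.

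All 4 inhibitors were higher at both times. Socs3, which blocks signalling of the interleukin-6 receptor subunit gp130, changed most among the members. Its values were 8.74, 8.91, 8.83 and 9.30 in WT controls and 9.22, 8.77, 8.59 and 9.10 in KO controls. At day 2 they were 10.48, 10.52, 10.55 and 9.88 in WT and 10.78, 10.46, 10.04 and 10.79 in KO, and at day 5 10.16, 10.27, 10.33 and 10.40 in WT and 10.09, 10.09, 10.23 and 10.25 in KO. The lowest lesioned sample was above the highest control at each time. Socs3 rose by 1.51 ± 0.13 at day 2, 2.84-fold (2.36 to 3.41), and by 1.29 ± 0.13 at day 5, 2.45-fold (2.04 to 2.95), with adjusted p-values of 3.6e-08 and 2.23e-07.

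Within the controls, Socs3 was between 8.91 and 9.30 in the 4 samples that shared an array with a lesioned sample and between 8.59 and 8.83 in the 4 that shared one with another control. At day 2 the pair of samples with a control partner were at 9.88 and 10.04, and the other 6 between 10.46 and 10.79. At day 2 the direction was the same for Stat5a, as given above, and for the means of Cish, Socs1 and Stat4. Socs2 went the other way there, averaging 10.25 with a control partner (n = 2) and 9.92 with a lesioned one (n = 6). The means of Stat3, Stat5b and Stat6 also went that other way. Stat5a controls overlapped, at 6.44 to 6.81 with a control partner and 6.52 to 6.86 with a lesioned one. At day 5 the means with a control and a lesioned partner were 10.18 and 10.24 for Socs3. For Stat5a they were 7.82 and 7.80. With the same covariate as above Socs3 rose by 1.41 and 1.20, with adjusted p-values of 1.56e-09 and 1.13e-08.

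Cish, whose product CIS competes with STAT5 for receptor docking sites, had controls from 8.13 to 8.64 with a median of 8.43. The day 2 samples ran from 8.98 to 9.73 with a median of 9.56 and the day 5 samples from 9.06 to 9.60 with a median of 9.46, so that neither group overlapped the controls. Cish rose by 1.07 ± 0.11 at day 2, 2.10-fold (1.78 to 2.47), and by 1.03 ± 0.11 at day 5, 2.04-fold (1.73 to 2.40), with adjusted p-values of 7.16e-07 and 8.91e-07. Within the Cy3 samples the day 2 difference was 1.30 and within the Cy5 samples 0.84.

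Socs2, an inhibitor of growth hormone signalling, had controls from 8.72 to 9.22 with a median of 9.001. Day 2 samples lay between 9.44 and 10.37 (median 10.01) and day 5 samples between 9.58 and 9.96 (median 9.73), all above the controls. It rose by 1.02 ± 0.10 at day 2, 2.02-fold (1.75 to 2.34), and by 0.77 ± 0.10 at day 5, 1.70-fold (1.47 to 1.97), where the adjusted p-values were 3.29e-07 and 9.12e-06. The second Socs2 probe, annotated to an Ensembl transcript, changed less, by 0.26 (adjusted p = 0.0749) and 0.36 (adjusted p = 0.0113).

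Socs1, which inhibits the Janus kinases directly and restrains interferon signalling, had controls from 6.14 to 6.59 with a median of 6.52. Day 2 samples ran from 6.77 to 7.83 (median 7.27) and day 5 samples from 6.75 to 7.19 (median 6.94), with no overlap with the controls. It rose by 0.82 ± 0.12 at day 2, 1.77-fold (1.48 to 2.12), and by 0.53 ± 0.12 at day 5, 1.44-fold (1.20 to 1.73), with adjusted p-values of 6.11e-05 and 0.00354.

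Counted over all probes, all lesioned samples lay above all controls for 6 of the 15 member probes at day 2, against 3.41% of the array's probes, and for 7 at day 5, against 5.07%. These were the brightest probes of Stat5a, Stat5b, Socs1, Socs2, Socs3 and Cish, joined at day 5 by the second Stat5b probe. Within each of the 3 slides and each dye, every brightest-probe change that was called over all samples kept its direction. The slides did not hold all groups: slide 1 had no WT day 2, slide 2 no WT day 5 and slide 3 no KO day 5 sample. In those cases the difference came from the other genotype alone, and at day 2 on slide 1 from 1 KO library. The macrophage, neuron and satellite glia markers moved over the same samples, as given above. The summed level of 4 muscle markers, none of them called, was 121 to 1893 intensity units in controls. It was 124 to 4821 at day 2 and 143 to 10558 at day 5. Schwann cell markers summed to 70548 to 109329 in controls and 77300 to 210402 at day 2. The part of all these markers in the changes of the STAT and SOCS genes was not tested.

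The levels at day 5 were compared with those at day 2. No member probe was called, against 3.08% of all probes, and 5 of the 15 had an unadjusted p below 0.05. Among these, Socs1 differed by -0.30 (95% confidence interval -0.56 to -0.04, adjusted p = 0.248) and Socs2 by -0.25 (-0.46 to -0.04, adjusted p = 0.226), while Stat5b differed by 0.19 (0.01 to 0.36, adjusted p = 0.284). The remaining 2 were Stat6 probes, at -0.20 and -0.15. In order of mean level, Socs1, Socs2, Socs3 and Cish had day 2 first, then day 5, then control, and Stat5a and Stat5b had day 5 first, then day 2, then control. Stat3 had the order day 2, day 5, control, and Stat6 the order control, day 2, day 5. In each of these orders day 2 and day 5 were neighbours whose difference did not pass the adjusted threshold. For Socs3 the difference of -0.21 had an interval of -0.48 to 0.05.

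KO and WT samples were compared at each time to ask whether the absence of Nfil3 altered these genes. No member probe was called in control DRGs, at day 2 or at day 5, against 0%, 0.0121% and 0.0121% of all probes. Of the 45 comparisons, 1 had an unadjusted p below 0.05, that of Socs2 at day 2. Socs2 was 9.97, 9.85, 9.44 and 10.13 in WT day 2 and 9.92, 10.06, 10.37 and 10.29 in KO day 2, overlapping groups with a difference of 0.31 (0.01 to 0.61, unadjusted p = 0.0416). Leaving out Stat4, the KO minus WT differences of the brightest probes ran from -0.13 to 0.31 and their 95% confidence intervals lay within -0.50 to 0.61, so differences up to these bounds remain possible with 4 samples a group. Without the library labelled KO control replicate 4 the differences, again leaving out Stat4, ran from -0.15 to 0.31 and no call was made.

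For Socs3 the KO minus WT difference was -0.02 in control DRGs (-0.40 to 0.35), 0.16 at day 2 (-0.22 to 0.54) and -0.13 at day 5 (-0.50 to 0.25). For Stat3 it was 0.07 (-0.17 to 0.32), 0.09 (-0.16 to 0.335) and 0.12 (-0.13 to 0.36). For Stat4 the difference in control DRGs was -0.86 (-1.96 to 0.24) with WT control replicate 4 and 0.00 (-0.44 to 0.45) without it.

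**Figure D3:**
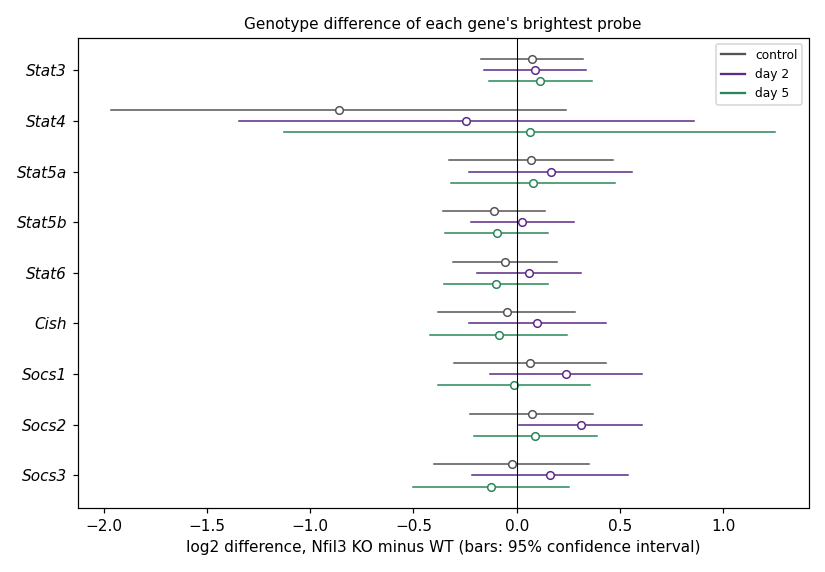
Log2 difference of Nfil3 KO minus WT for each gene's brightest probe in control DRGs (grey), at day 2 (purple) and at day 5 (green), with 95% confidence intervals over 4 samples a group. The Socs2 interval at day 2 is the only one that leaves out 0, and its difference of 0.31 was not called after adjustment.

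The test of whether the time course differed between genotypes called no member probe and 0% of all probes. The smallest adjusted p over all probes was 0.359, so Nfil3 itself was not called. Its brighter probe had means of 8.65 and 10.9 in WT control and WT day 5, and 4.67 and 4.42 in KO. The test thus missed that difference, and its lack of calls does not show equal time courses. The paper reported genes whose lesion response differed, from a time course analysis and a limma interaction analysis. The smallest unadjusted p among the members was 0.262, for the second Stat5b probe. Taken one genotype at a time, the lesion called 7 member probes in WT at day 2 and 7 at day 5, against 9.99% and 12.9% of all probes, and 6 and 5 in KO, against 10.9% and 11.7%. Socs1 at day 5 was called in WT, by 0.56 (adjusted p = 0.0387), and was 0.49 in KO (adjusted p = 0.0819), with an unadjusted p of 0.594 for the difference in time course.

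Beyond the 9 genes, 68 genes of the pathway with a probe were read from lists of ligands, receptors, other signalling components and STAT3 target genes. At day 2 the brightest probes of 23 were higher, 3 lower and 42 not called, and at day 5 27, 6 and 35. Over all genes of the array, by brightest probe, 9.48% were higher and 12.7% lower at day 2, and 10.2% were higher and 13% lower at day 5, and the counts of each list below are to be read against these shares. Lif, a ligand of the list, had no probe of that name. None of the 68 was called between KO and WT at any time.

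Among 7 ligands of the interleukin-6 family, 3 were higher at each time. Il6 rose by 2.67 at day 2 and 2.03 at day 5 (adjusted p = 6.55e-11 and 2.62e-09), from a level at which 4 of 8 controls were well above background. Clcf1, the gene of a cytokine of this family, rose by 0.54 and 0.62. Of 10 receptors that signal through STAT3, 1 was higher at day 2, and 2 were higher and 1 lower at day 5. Il10rb was the one higher at both times, by 0.34 and 0.43, and Osmr, the oncostatin M receptor, fell by 0.43 at day 5.

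Of 9 receptors that signal through STAT5, 1 was higher and 1 lower at day 2, and 3 were higher and 1 lower at day 5. Csf2rb, the shared subunit of the interleukin-3 and GM-CSF receptors, rose by 0.71 and 0.85, and Ghr, the growth hormone receptor, fell by 0.57 and 0.72. Of 6 receptors upstream of STAT4 and STAT6, 2 were higher at day 2 and 3 at day 5. Il13ra1, a subunit of the interleukin-13 receptor, rose by 1.45 and 1.78, and Il4ra, with which it pairs, rose by 1.13 at day 5.

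Of 19 other components, 6 were higher and 1 lower at day 2, and 6 were higher and 2 lower at day 5, with a median of 0.04 and 0.08. Ptpn1, the gene of a phosphatase that acts on Janus kinases, rose by 0.93 and 0.89, Ptpn6, the gene of the SHP-1 phosphatase of blood cells, by 0.54 and 1.09, and Jak2 by 0.37 and 0.44. Socs5 fell by 0.42 at day 5. Of 17 STAT3 targets, 10 were higher and 1 lower at day 2 and 10 were higher and 2 lower at day 5. Timp1, an inhibitor of metalloproteinases, rose by 3.15 and 2.19, Cebpd by 1.25 at day 2, and Gfap, an intermediate filament of glia, by 1.43 and 1.22, while Vegfa fell by 0.79 and 0.62. Reg3b, a secreted lectin, was not well above background in any of 8 controls, and its day 5 level was at least 5.02-fold higher.

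**Figure D4:**
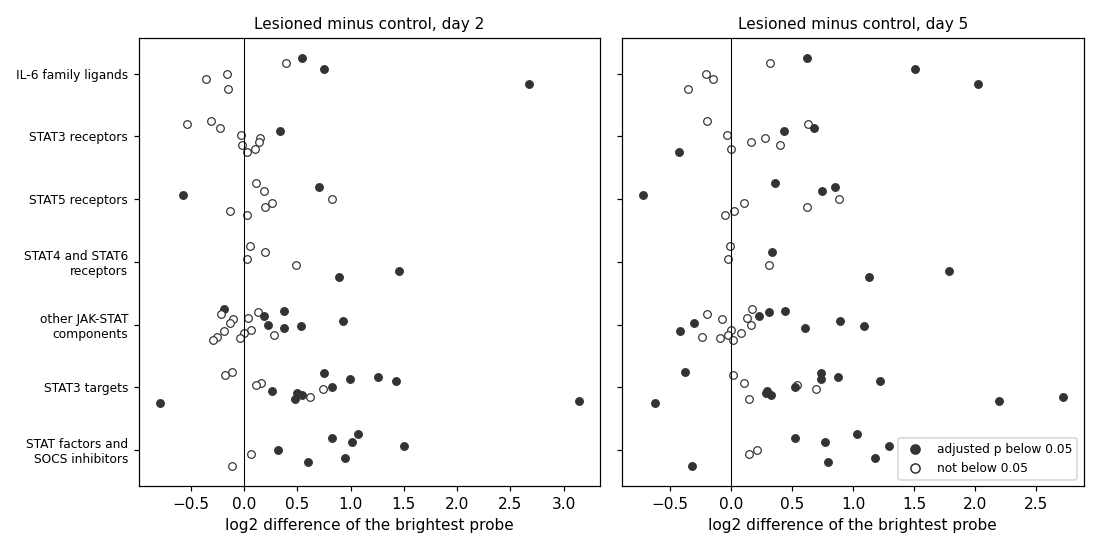
Log2 difference of lesioned minus control DRGs at day 2 (left) and day 5 (right) for the brightest probe of each gene in 6 lists of the pathway and the 9 STAT and SOCS genes; filled points have an adjusted p below 0.05. The target genes and ligands reach the highest values, Timp1 at 3.15 and Il6 at 2.67 at day 2, while most receptors were not called; the day 5 point of Reg3b is a fitted value against controls not above background.

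The genes most like Stat3 and Socs3 over the 24 samples were taken from the 17677 genes whose brightest probe was well above background in at least 12 samples, by Pearson's r. The samples share arrays and slides, and the groups differ by lesion, so r mostly follows the lesion groups. Nearest to Socs3 were Ptpn1 (r = 0.974), Gadd45a (r = 0.967), Plaur (r = 0.967), Cd207 (r = 0.965) and Tmem173 (r = 0.965). Among the members Cish (r = 0.903, rank 254 of the 17677 genes) and Stat5a (r = 0.888, rank 332) were nearest to Socs3. Stat3 had an r of 0.549 and rank 2527. Among the genes nearest to Stat3 were Rab3gap2 (r = 0.874), Arpc5 (r = 0.851), D1Pas1 (r = 0.848) and Tgs1 (r = 0.844).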

How the data were processed

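RNA of L4 and L5 DRGs was hybridised to Agilent 4x44K whole mouse genome arrays, 4 samples per genotype and time. The authors extracted the scans with Feature Extraction 10.7.3.1, and the deposited files hold unnormalized foreground and background intensity values per spot and channel. As in the study's methods, single-channel intensities were background corrected (Edwards; mean foreground, median background), quantile normalized on the log2 scale and tested with limma 3.58.1 in R 4.3.3, here with 1 mean per group, moderated variances and Benjamini-Hochberg adjustment over 41174 probes. Outlier-marked spots were left out and spots of a probe averaged, which left 417 values missing, 1 of them a member's. Promoter windows were read with Python 3.11.15.

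Groups came from titles. Arrays give no depth; the number of samples limits precision, and p-values cover the spread between the labelled samples only. Quantile normalization sets all samples to the same distribution, so changes are relative to it. A gene was represented by its probe of highest mean level; all 9 members, genes of the pathway lists called with a log2 change of at least 1, and the 5 nearest genes to Stat3 and Socs3 were named by rule, apart from some that are not reported here. Other genes given from the lists (Clcf1, Il10rb, Osmr, Csf2rb, Ghr, Ptpn1, Jak2, Socs5, Vegfa) were chosen after their values were seen. The members and lists were chosen with earlier results of these data known. Alternatives to background correction, normalization, filters, covariates and samples were run.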

Additional observations from a re-analysis of the deposited data

Results flagged for a closer look

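A sample stood apart from the other 3 of its group, by a gap over most of the group's range, in 4 of the 89 sets of 4 values of a member probe, where chance gives about 1 in 20, or 4.45. Socs3 was 9.88 in WT day 2 replicate 4 against 10.48 to 10.55 in the others, and this sample shared its array with a control. Socs1 was 6.15 in KO control replicate 2 against 6.52 to 6.59. The second Stat5b probe was 4.54 in KO control replicate 1 against 4.90 to 4.92. The dimmest Stat6 probe was 5.25 in KO day 2 replicate 4 against 5.64 to 5.68. What set these 4 values apart was not tested.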

How the results depend on the processing

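The number of member probes called for the lesion stayed within 1.5 times under the 17 other settings and the 24 fits without 1 sample: 6 to 9 at day 2 (8 to 9 without 1 sample) and 7 to 11 at day 5 (9 to 11 without 1 sample), where the lower ends count 9 genes with their probes averaged. The counts for day 5 minus day 2, KO minus WT and the time course stayed at 0 in all of these.

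The replicate block gave 8 and 9 member probes and changed no call of a member's brightest probe. No pairing by replicate number was seen. Deviations of samples with the same number correlated between -0.064 and 0.205 over 60 pairs (median 0.070, 13 over 0.1). Those with another number and the same dye lay between -0.114 and 0.203 over 60 pairs (median 0.047, 13 over 0.1). Of 24 samples, 11 correlated best with their own number. A pairing by animal could not be tested, since the titles name no animal.

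Stat3 lost its day 2 call with its probes averaged (0.23) and passed at day 5 with no background correction (adjusted p = 0.0475), with normexp (0.0466) and without KO day 2 replicate 2 (0.0446). Stat4 turned to -0.0760 at day 2 with no background correction, -0.0763 with normexp, -0.0335 with a slide block, -0.00598 with the array as a random block and -0.0855 with the lesion state of the array partner as a covariate, and to -0.0663, -0.0503 and -0.0750 at day 5 with no background correction, with normexp and with that covariate. Without 1 sample it ran from -0.149 to 0.497 at day 2 and from -0.0631 to 0.582 at day 5. The difference of Cish between day 5 and day 2, -0.04, was 0.0429 with a slide block and 0.0377 without the 5 KO libraries in which Nfil3 was well above background, and ran from -0.115 to 0.0127 without 1 sample. The cause of these shifts was not tested, apart from the single Stat4 control. The called changes of Stat5a, Stat5b, Stat6, Socs1, Socs2, Socs3 and Cish kept direction and call in all these settings, except that Stat6 lost its day 5 call without those 5 libraries (adjusted p = 0.0792). Sizes moved by over 1.5 times for Socs1 under normexp (0.52 at day 2 and 0.32 at day 5) and, with probes averaged, for Stat5b (0.33 and 0.49) and at day 2 for Socs2 (0.64). Quantiles averaged on the linear scale, the partner covariate and the omission of the 5 libraries were added after seeing the data, and the first and second changed no call. The planned block for partners of the same time is balanced within groups and leaves the differences of probes with no missing value as they are. Within slides and dyes no count could be given, since these differences had no test.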
